A study of Mus musculus with 4 samples.

Results

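Regulators of G protein signaling (RGS proteins) were followed in muscle stem cells (MuSCs) of adult mice, kept in culture, through 9 Rgs genes, Rgs2, Rgs3, Rgs4, Rgs5, Rgs10, Rgs12, Rgs14, Rgs16 and Rgs19, and through Gm5763, which is annotated as a processed pseudogene and holds a copy of Rgs3. These 10 members were picked by gene name from a table of 55267 entries, each with its level in TPM, the transcripts of a gene per 1000000 transcripts. They were chosen with the difference between BMP6-treated and control cells already known, so that difference is given for them as a description, without a test.

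The study asked which genes respond within 1 h when MuSCs receive BMP6, a secreted bone morphogenetic protein. The mononucleated cells came from skeletal muscles of female mice aged 9 weeks with the genotype C57BL/6N(Tg(Pax7-EGFP)Tajb), in which a transgene labels cells that use the Pax7 gene, a marker of MuSCs, with green fluorescent protein. Sorting for that label enriched MuSCs, and no other allele was given. All cells, controls included, spent 6 h in serum-free medium with 200 ng/mL of BMPR-1A-Fc, a soluble BMP receptor that captures BMPs left in the culture. The BMP6 group then received 100 ng/mL BMP6 for 1 h, and the control group received the vehicle, 4 mM HCl with 0.1% BSA. Each group had 2 biological replicates, and the labels name replicate 1 and replicate 2 as batches, each with a BMP6 and a control library. How many mice gave the cells of a replicate was not given in the sources used here.

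RGS proteins switch G protein signaling off. A receptor coupled to G proteins loads the G alpha subunit with GTP, and the RGS domain speeds the hydrolysis of that GTP, so that alpha and beta-gamma subunits join again and stop acting on their effectors. The small members Rgs2, Rgs3, Rgs4, Rgs5 and Rgs16 form the R4 subfamily and consist of little more than the RGS domain in their short forms. Rgs10, Rgs12 and Rgs14 form another subfamily, in which Rgs12 and Rgs14 carry further domains that bind inactive G alpha and small GTPases, and Rgs19, also called GAIP, belongs to yet another.

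The R4 genes had the RGS domain divided into exons in the same way. An exon of 62 bases followed by one of 167 bases, together 229 bases, was found in 5 of the 10 members, Rgs2, Rgs3, Rgs4, Rgs5 and Rgs16, in each case as exons 3 and 4 of the transcript. Rgs10, Rgs12, Rgs14 and Rgs19 had no such pair, and in Gm5763 the matching bases lie inside 1 exon. The 62-base exon is printed for the 5 genes and for the copy in Gm5763 (GRCm39), with capitals for the 15 positions at which the 5 genes have the same base.
Rgs2, chr1:143878518-143878579, minus strand: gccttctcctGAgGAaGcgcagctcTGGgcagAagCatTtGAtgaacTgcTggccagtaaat
Rgs3, chr4:62618591-62618652, plus strand: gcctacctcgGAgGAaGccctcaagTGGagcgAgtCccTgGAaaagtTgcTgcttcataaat
Rgs4, chr1:169572244-169572305, minus strand: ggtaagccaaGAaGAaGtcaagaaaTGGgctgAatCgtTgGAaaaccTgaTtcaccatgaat
Rgs5, chr1:169510324-169510385, plus strand: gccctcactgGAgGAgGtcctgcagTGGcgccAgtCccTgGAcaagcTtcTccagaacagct
Rgs16, chr1:153617366-153617427, plus strand: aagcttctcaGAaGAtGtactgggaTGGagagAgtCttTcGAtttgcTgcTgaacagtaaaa
Gm5763, chrX:141414832-141414893, minus strand: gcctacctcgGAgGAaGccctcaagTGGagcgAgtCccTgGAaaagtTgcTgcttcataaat
Over the 229 bases, Rgs3 was identical to Rgs5 at 65.5% of positions, to Rgs16 at 65.1%, to Rgs4 at 64.2% and to Rgs2 at 62.4%. In the 62-base exon, Gm5763 matched Rgs3 at all 62 positions, while the other R4 genes matched it at 33 to 41. Rgs2, Rgs4, Rgs5 and Rgs16 lie on chromosome 1, and Rgs5 and Rgs4 are neighbours there, transcribed toward each other with 45.7 kb between them. Rgs3 lies on chromosome 4.

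The libraries were similar in size, with 108157527 to 111985694 reads rebuilt from coverage, and 13002 to 13203 entries per library reached 1 TPM. The identity of the cells was checked with 8 markers of muscle stem cells and myoblasts, which summed to 6701 and 6978 TPM in BMP6 libraries and to 6888 and 7662 TPM in control libraries. Myog, a differentiation factor of myoblasts, was the highest of them at 4400 to 5472 TPM, and Pax7 was at 8.29 to 11.7 TPM. All 5 endothelial markers and all 5 Schwann cell markers stayed under 1 TPM in every library, as did 5 of 6 immune markers. The 8 fibroblast markers summed to 311 and 432 TPM in BMP6 libraries and to 354 and 429 TPM in control libraries, and 6 of them reached a mean of 1 TPM. Most of that sum was collagen RNA, with Col1a2 at 186 to 240 TPM. Pdgfra, at 0.164 TPM or less, was 1 of only 2 fibroblast markers that stayed under 1 TPM in every library. Whether fibroblasts were among the cells was not tested. Across all tested entries the median of the log2 fold change was 0.02.

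The 9 Rgs genes covered a wide range of levels. In control cells Rgs19, a regulator of Gi-coupled signaling, had the highest level with 37.7 TPM in replicate 1 and 40.7 TPM in replicate 2. Rgs16, an R4 member that acts on Gi and Gq, followed with 18.4 and 19.2 TPM. Rgs3 came next with 10.8 and 9.43 TPM, and its values overlapped those of Rgs4, the next in order, at 11.2 and 8.49 TPM. Rgs12 was at 4.28 and 5.38 TPM. Rgs10, Rgs2 and Gm5763 overlapped as neighbours between 1.83 and 3.95 TPM, and Rgs14 and Rgs5 were both under 0.5 TPM. In BMP6 cells the order changed at the top, with Rgs3 at 38.3 and 38.5 TPM in first place and Rgs19 at 37.6 and 36.9 TPM below it. Summed over the 9 Rgs genes, the level was 115 and 116 TPM in BMP6 libraries and 91.0 and 87.9 TPM in control libraries.

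**Figure D1:**
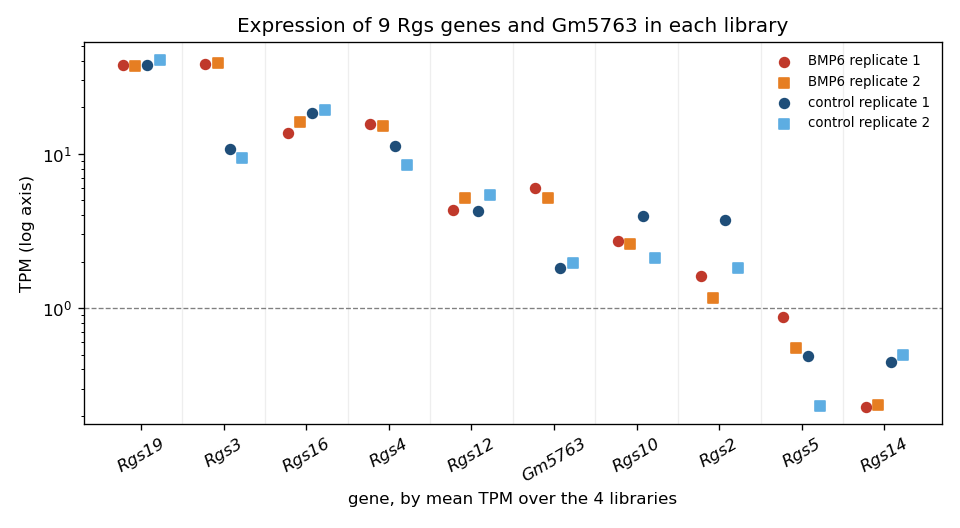
TPM of the 9 Rgs genes and of Gm5763 in each of the 4 libraries (vertical log axis, genes ordered by mean TPM, dashed line at 1 TPM). Rgs3 sits near 38 TPM in both BMP6 libraries and near 10 TPM in both control libraries, while the points of Rgs19 and Rgs12 lie close together in all 4.

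Rgs3 showed the largest difference of the 10 members. Its level was 38.3 and 38.5 TPM in BMP6 replicates 1 and 2 and 10.8 and 9.43 TPM in control replicates 1 and 2. Both BMP6 libraries were thus above both control libraries, with group means of 38.4 ± 0.133 TPM and 10.1 ± 0.953 TPM (SD, n = 2 each). The ratio of the group means was 3.80, and the log2 fold change on the log2(TPM + 1) scale was 1.83 (SE 0.12, n = 2 per group), with 1.74 within replicate 1 and 1.92 within replicate 2. Ranked by this fold change, Rgs3 was number 13 of the 13128 entries with a mean of at least 1 TPM. About 4354 and 4101 rebuilt reads in BMP6 libraries and 1273 and 1250 in control libraries stood behind these values, so counting error was small beside the difference.

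Gm5763, the copy of Rgs3, differed in the same direction. It was at 5.98 and 5.20 TPM in BMP6 libraries and at 1.83 and 1.97 TPM in control libraries. The groups did not overlap, and the log2 fold change was 1.18 (SE 0.15), with 1.30 and 1.06 within replicates 1 and 2. The thresholds used over all entries were a fold change of at least 2 and an adjusted p under 0.1 by limma. Over all tested entries 27 of 13128 met both as higher with BMP6 (0.206%) and 0 met them as lower (0.0%). With the replicate number as a block, 0.312% of all entries met both as higher and 0.0152% as lower. As the members were selected on this contrast, no call is read for them.

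The other R4 members did not move together. Rgs4, which acts on Gi and Gq, was at 15.7 and 15.1 TPM in BMP6 libraries and at 11.2 and 8.49 TPM in control libraries, without overlap. Its log2 fold change was 0.61 (SE 0.16), with 0.45 and 0.76 within the replicates. Rgs16 was at 13.5 and 16.1 TPM with BMP6 and at 18.4 and 19.2 TPM in controls, so here the control libraries were the higher ones. The log2 fold change of Rgs16 was -0.33 (SE 0.13), with -0.42 and -0.24 within the replicates. In control cells Rgs16 was above Rgs4 in both libraries, and in BMP6 cells their values overlapped.

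Rgs2, the R4 member that prefers Gq, was at 1.62 and 1.17 TPM in BMP6 libraries and at 3.70 and 1.83 TPM in control libraries. The groups stood apart, but control replicate 1 was well above control replicate 2, a gap wider than that between the lowest control and the highest BMP6 library. Its log2 fold change was -0.61 (SE 0.27), with -0.84 and -0.38 within the replicates. Without control replicate 1 the value was -0.25, and without control replicate 2 it was -0.98. Rgs5 was low, at 0.879 and 0.554 TPM with BMP6 and 0.493 and 0.231 TPM in controls. At 59 to 151 rebuilt reads per library it was left out of the fit, and the difference of its log2(TPM + 1) means was 0.33, with 0.33 and 0.34 within the replicates. Rgs5 is known as a marker of pericytes, the cells that surround small vessels. Of the 8 markers listed for pericytes and smooth muscle, 5 reached a mean of 1 TPM. Pdgfrb was at 4.41 and 4.93 TPM with BMP6 and 4.48 and 4.77 TPM in controls, and Cspg4 at 3.30 and 3.95 against 2.05 and 3.25 TPM. Abcc9 and Mcam lay between 2.48 and 4.88 TPM in all libraries, with overlapping groups. These 4 had log2 fold changes of 0.01 to 0.36, Cspg4 the highest, and none passed an adjusted p of 0.1. Higd1b was at 0 TPM in all libraries, Kcnj8 was at 0.177 TPM or less and Myh11 at 0.024 TPM or less. The list summed to 2922 and 2962 TPM in BMP6 libraries and to 3113 and 3266 TPM in control libraries, nearly all of it Acta2, which differentiating myoblasts also express. The part of such cells in the Rgs5 values was not tested, and in bulk RNA fewer cells of a type and less RNA per cell cannot be told apart.

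Of the members outside the R4 subfamily, Rgs19, Rgs12 and Rgs10 differed little. Rgs19 was at 37.6 and 36.9 TPM with BMP6 and at 37.7 and 40.7 TPM in controls, a log2 fold change of -0.07 (SE 0.10). Its groups stood apart by the small gap between 37.6 and 37.7 TPM. Rgs12 overlapped between the groups, its entry also holding the microRNA gene Mir3097, with 4.29 and 5.18 TPM against 4.28 and 5.38 TPM and a log2 fold change of -0.02 (SE 0.17). Rgs10 overlapped as well, with 2.73 and 2.58 TPM against 3.95 and 2.12 TPM and a log2 fold change of -0.11 (SE 0.24). Rgs14 was at 0.228 and 0.234 TPM with BMP6 and at 0.447 and 0.499 TPM in controls, from 34 and 34 against 68 and 73 rebuilt reads. Rgs14 was left out of the fit for its low level. The difference of its log2(TPM + 1) means was -0.26, with -0.24 and -0.28 within the replicates. Without the added 1 TPM, the ratio of its group means, BMP6 over control, was 0.488.

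In all, both BMP6 libraries were above both controls for 4 members, Rgs3, Rgs4, Rgs5 and Gm5763, and below both controls for 4, Rgs2, Rgs14, Rgs16 and Rgs19. Of all tested entries, 16.6% had non-overlapping groups with BMP6 above and 11.6% with BMP6 below. Over the 28856 entries above 0 TPM in some library, which take in Rgs5 and Rgs14, these shares were 14.0% and 12.0%. Of the 10 members 8 passed the minimum of 1 TPM, of which 3 had a positive and 5 a negative log2 fold change, with a median of -0.04. Outside Rgs3, Gm5763, Rgs4 and Rgs2, no tested member had a log2 fold change beyond 0.33 in either direction.

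**Figure D2:**
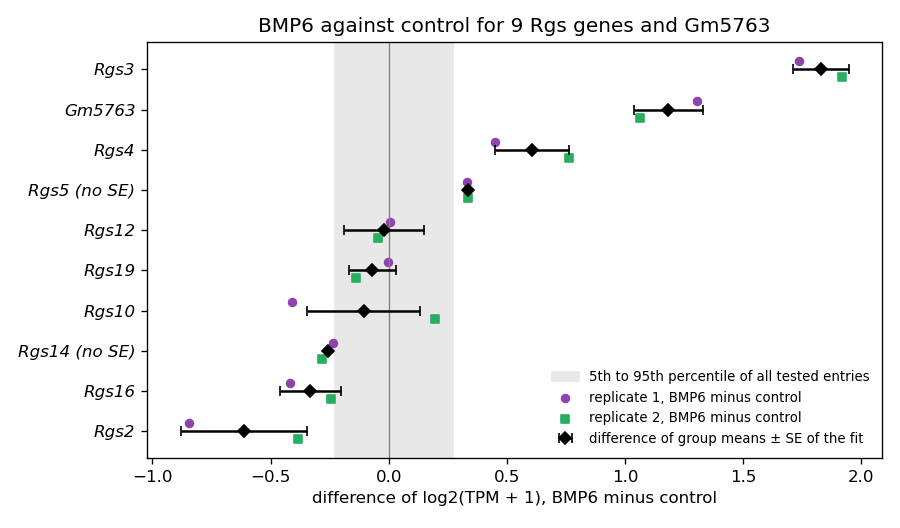
Difference of log2(TPM + 1), BMP6 minus control, for the 9 Rgs genes and Gm5763 (black diamonds with the SE of the fit where there is one, circles and squares for replicates 1 and 2, grey band for the 5th to 95th percentile of all tested entries, -0.23 to 0.27). Rgs3 at 1.83 and Gm5763 at 1.18 lie far to the right of the band, and Rgs2 at -0.61 lies to its left. Rgs4 at 0.61 and Rgs5 at 0.33 also lie to its right, and Rgs16 at -0.33 and Rgs14 at -0.26 to its left.

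The batches were compared as a measure that had no part in the choice of members. Replicate 2 against replicate 1, with treatment as a term in limma, gave an adjusted p under 0.1 for 2595 of 13128 entries (19.8%), and a fold change of at least 2 as well for 0.373% as higher and 0.152% as lower. Among the 8 members tested, 1 passed, Rgs2, which was lower in replicate 2 by a log2 value of -0.50 (SE 0.15, adjusted p = 0.0625). Rgs2 was lower in replicate 2 in both the BMP6 and the control cells. The same contrast for Rgs3 gave -0.08 (SE 0.09, adjusted p = 0.566), and for Rgs4 it gave -0.21 (SE 0.11, adjusted p = 0.225).

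Rgs3 has 6 transcripts in the deposited files, in an entry of 143 kb on the plus strand of chromosome 4 (chr4:62478084-62621255). Reads were assigned mainly to the shortest, ENSMUST00000125369.8, which starts at 62617703, has 5 exons and 1719 bases and codes over 576 bases. Its TPM was 34.9 and 36.4 in BMP6 replicates 1 and 2 and 10.1 and 5.51 in control replicates 1 and 2. A transcript of 7 exons, ENSMUST00000107420.8, starts 25.4 kb before it and has a coding length of 1704 bases. It was at 3.17 and 2.10 TPM in BMP6 libraries and at 0 and 3.91 TPM in control libraries, so the groups overlapped. A transcript of 16 exons, ENSMUST00000084521.11, with a coding length of 2898 bases, was at 0.177 and 0 TPM against 0.639 and 0 TPM, and the other 3 were at 0.012 TPM or less in every library.

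Most of the difference in Rgs3 TPM was assigned to the short transcript. Its mean TPM was higher by 27.8 with BMP6, against 28.3 for the whole Rgs3 entry, a part of 98.5%, or 92.5% when control replicate 2 is left out. Its share of the Rgs3 TPM was 91.3% and 94.5% in BMP6 libraries and 94.0% and 58.4% in control libraries. The mean difference was 16.7 percentage points, given as a description. An exact permutation test of 2 libraries against 2 cannot give a p below 0.33, so no test is read for it. The difference rested on control replicate 2, without which it was -1.12 points.

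**Figure D3:**
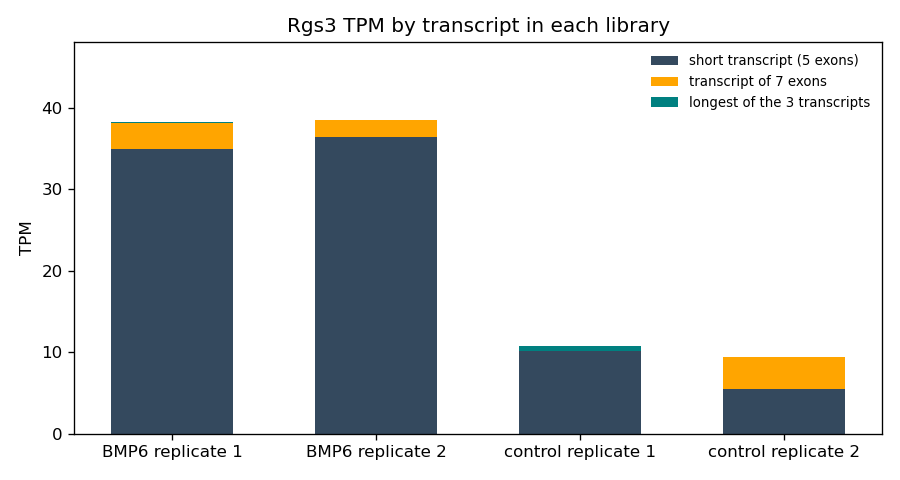
TPM of the 3 Rgs3 transcripts with a mean of at least 0.1 TPM, stacked for each of the 4 libraries. The short transcript makes up most of each bar, from 5.51 TPM in control replicate 2 to 36.4 TPM in BMP6 replicate 2, and only in control replicate 2 does the 7-exon transcript take a large part (3.91 TPM).

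The split between transcripts that share exons is an estimate, so the exons that belong to 1 form were read separately. Coverage, the mean number of reads over a base, was multiplied by the TPM that 1 unit of coverage is worth in that library. The first exon of the short transcript (chr4:62617703-62618131, 429 bases) occurs in no other Rgs3 transcript. Its scaled coverage was 12.1 and 10.2 in BMP6 libraries and 2.52 and 2.92 in control libraries, a ratio of means of 4.10. Control replicate 2 was here slightly above control replicate 1, unlike in the estimate for the whole transcript. The 4 exons that the short form shares with the longer forms had ratios from 3.52 to 3.95. Their levels were higher, with mean scaled coverages of 45.4 to 49.7 with BMP6 and 11.5 to 14.0 in controls. The means of the first exon were 11.1 and 2.72. Why the first exon was lower than the shared exons was not tested.

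Exons used only by the longer forms behaved otherwise. The exon of 1128 bases (chr4:62607736-62608863) had scaled coverages of 0.991 and 0.454 with BMP6 and 0.947 and 1.13 in controls, which overlap. The next, of 62 bases (chr4:62615508-62615569), was at 0.587 and 0.403 with BMP6 and at 1.24 and 1.68 in controls, so that controls were the higher ones. Gm5763 holds a copy of positions 570 to 1979 of the 7-exon transcript. That stretch takes in part of the 1128-base exon and all of the 62-base exon. Whether the reads of these exons came from Rgs3 or from Gm5763 was not tested. The first exon of the 7-exon transcript (chr4:62592276-62592547) was at 0.126 and 0.072 with BMP6 and at 0 and 0.026 in controls, too low to compare. Of the 23 Rgs3 exons before it, 12 were at 0 in all libraries and none exceeded 0.392. In control replicate 2 the 7-exon transcript was given a coverage of 39.7 to 46.4 in the shared exons but of 6.95 and 10.3 in the 1128-base and 62-base exons, which only long forms hold. A gap of this kind was also present in BMP6 replicates 1 and 2. There the 7-exon transcript was given a coverage of 37.5 and 24.3 in the shared exon of 959 bases. It was given 5.77 and 2.73 in the 1128-base exon and 3.42 and 2.42 in the 62-base exon. In control replicate 1 it was given 0 in all of these exons. Control replicate 2 is the library in which the 7-exon transcript had the largest part of the Rgs3 TPM.

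**Figure D4:**
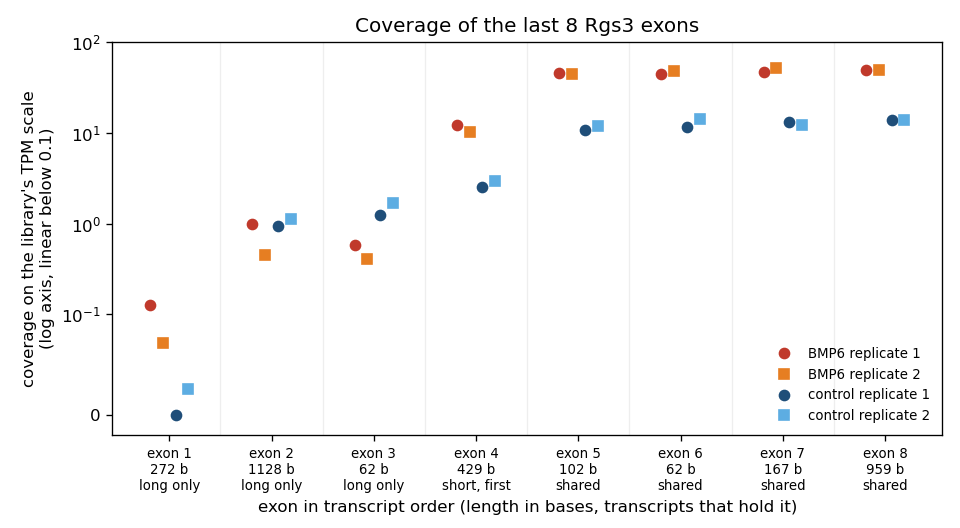
Coverage of the last 8 Rgs3 exons in transcript order, on the TPM scale of each library (log axis, linear below 0.1), with exon length in bases and the transcripts that hold each exon. The first exon of the short transcript and the 4 shared exons have BMP6 points above control points, with ratios of 3.52 to 4.10, while the 2 long-form exons before them do not.

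Because the first exon of the short transcript showed the difference, the 250 bases before its annotated start are shown. They are followed by the 250 bases before the start of the 7-exon transcript, whose own first exon was too low to compare (GRCm39, plus strand). Whether transcription began at these starts was not tested. Capitals mark AGAC or its reverse complement GTCT, the SMAD box that the BMP signal transducers of the SMAD family can bind. They also mark CTA followed after any 4 bases by TAG. This pattern is wider than the core of sites for MEF2 factors, where the 4 bases are A or T. MEF2 factors act with myogenic factors in muscle genes.
Rgs3 short transcript, chr4:62617453-62617702: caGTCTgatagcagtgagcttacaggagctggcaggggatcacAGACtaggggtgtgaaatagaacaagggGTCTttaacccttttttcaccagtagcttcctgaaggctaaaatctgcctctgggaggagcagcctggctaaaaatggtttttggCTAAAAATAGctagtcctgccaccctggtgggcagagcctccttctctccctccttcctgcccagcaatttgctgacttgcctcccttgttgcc
Rgs3 7-exon transcript, chr4:62592026-62592275: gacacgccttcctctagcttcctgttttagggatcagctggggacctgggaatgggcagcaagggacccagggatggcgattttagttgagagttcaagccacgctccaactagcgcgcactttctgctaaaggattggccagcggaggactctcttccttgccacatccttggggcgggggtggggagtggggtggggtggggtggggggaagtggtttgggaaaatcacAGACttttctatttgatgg
The window of the short transcript held 3 SMAD boxes, 248, 207 and 179 bases before the start, and the other window held 1. Such a box is common, in 83.4% of the same windows of 21574 protein-coding genes, with a median of 2. The MEF2-type letters, chosen after this sequence had been read, occurred 94 bases before the start of the short transcript. With any 4 bases in the middle they were in 3.32% of all windows, and the share with only A or T there was not counted. Neither window held GGCGCC (9.34% of windows) or GGAGCC (25.8%) or the AP-1 letters TGANTCA (6.14%), and CANNTG, the E-box, was in the second window only (64.8% of all windows). All were searched on both strands, and a match is a match of letters, not a measured site. The first window had no CG dinucleotide, where the median window had 8, at a GC content of 51.6% against a median of 53.2%.

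The nearness of Rgs3 and Gm5763 in sequence bears on both values. Gm5763 lies on the minus strand of chromosome X (chrX:141414479-141417011) and has exons of 45, 75 and 1410 bases. In the 1410-base exon, coverage was 40.6 and 33.9 in BMP6 libraries and 12.7 and 13.1 in control libraries, while the other exons reached at most 1.57. All 1410 bases aligned to the 7-exon Rgs3 transcript with 3 mismatches (99.8% identity). With the short transcript 517 bases aligned, positions 430 to 946, with 2 mismatches, C495T and G731A, counted from the transcript's 5′ end with the Rgs3 base first. The bases around both differences are shown, with the differing base in capitals.
Rgs3 at C495T: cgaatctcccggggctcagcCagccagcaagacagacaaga
Gm5763 at C495T: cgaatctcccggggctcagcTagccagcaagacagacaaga
Rgs3 at G731A: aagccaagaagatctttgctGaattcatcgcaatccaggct
Gm5763 at G731A: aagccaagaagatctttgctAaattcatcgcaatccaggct
Of all stretches of 100 bases, 15.6% of those in the short transcript occur unchanged in the 1410-base exon, and 38.1% of those in the 7-exon transcript. A read from them cannot be placed by its own bases, though its mate may place it, since reads came in pairs. Matches past the annotated exon are not in these shares. The 773 transcript bases after the Rgs3 stop codon match chromosome X over 771 bases at 99.9% identity. That match, chrX:141413708-141414478, directly adjoins the annotated exon. The share of the short transcript with a copy on chromosome X is thus above 15.6%. The first exon of the short transcript had no match of at least 100 bases at 95% identity elsewhere in the genome, and its coverage of 12.1 and 10.2 against 2.52 and 2.92 showed the difference as well. StringTie was run without its correction for reads that align to several places, so reads shared by Rgs3 and Gm5763 may stand in both entries. With Rgs3 and Gm5763 summed, which may count such reads more than once, the level was 44.3 and 43.7 TPM with BMP6 against 12.6 and 11.4 TPM in controls, and the log2 fold change was 1.79. Whether the reads given to Gm5763 came from it or from Rgs3 was not tested.

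The remaining members used mostly 1 transcript. Rgs16 and Rgs14 have 1 each, and for Rgs4 and Rgs10 the leading transcript held at least 98.5% of the TPM in every library. Rgs19 differed in that its TPM was divided between ENSMUST00000002532.9, with 26.1 and 26.2 TPM in BMP6 libraries and 24.0 and 26.5 TPM in control libraries, and ENSMUST00000108769.8. The latter was at 9.21 and 9.63 TPM with BMP6 and at 11.4 and 12.0 TPM in controls, so the groups did not overlap for this form but overlapped for the first. The leading Rgs12 transcript, ENSMUST00000030984.14, held 85.8% to 92.5% of the entry, and ENSMUST00000027997.9 held 59.4% to 100.0% of Rgs5.

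Partners of the RGS proteins were examined in 5 lists with 108 genes, of which 60 could be tested. The first list held other RGS family genes, with an RGS or RGS-like domain or coding for proteins that bind RGS proteins. The others held G protein subunits, effectors, receptor kinases with arrestins and exchange factors, and receptors. By limma 0 of the 60 passed an adjusted p of 0.1 in either direction, where 0.236% of all tested entries passed as higher and 0.00762% as lower. At an unadjusted p under 0.05 there were 4 higher (6.67% of the 60) and 1 lower (1.67%), against 2.34% and 0.861% of all tested entries. With reads rebuilt from coverage and voom, 0 passed as well. Of the 60, 40 had a positive and 20 a negative log2 fold change, with a median of 0.05 against 0.02 for all entries. The range was -0.50 to 0.94.

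Among the partners, Gnas and Gnb1 had levels far above those of the RGS genes, and the named effectors had levels near that of Rgs4. Gnas, the G alpha subunit that stimulates adenylyl cyclase, was at 688 and 662 TPM in BMP6 libraries and 668 and 628 TPM in control libraries (log2 fold change 0.06, SE 0.08). Gnb1, a beta subunit, was at 314 and 403 against 313 and 336 TPM (0.13, SE 0.13). G alpha subunits of the Gi class, on which most RGS proteins act, were at 31.7 and 36.7 against 30.2 and 31.1 TPM for Gnai1 and at 139 and 274 against 253 and 301 TPM for Gnai2, where BMP6 replicate 1 stood below the other libraries. Gnai1 and Gnai2 were singled out after their values were seen. Among effectors, Plcb3, a phospholipase C, had 13.4 and 15.0 against 14.6 and 13.8 TPM, and Pde4d, which degrades cyclic AMP, had 13.1 and 12.4 against 11.6 and 13.0 TPM.

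Of the other RGS family genes, 9 of 23 reached the minimum. The entry of Snx14, a sorting nexin, which also holds Syncrip and Gm20537 and so gives their joint level, was at 82.7 and 86.7 against 78.6 and 88.5 TPM, and Arhgef1, a guanine nucleotide exchange factor downstream of G alpha subunits, was at 22.5 and 25.2 against 22.7 and 21.2 TPM. Ric8a, a chaperone of G alpha subunits, was at 84.8 and 78.9 against 89.8 and 87.3 TPM, and Gpsm2, which binds inactive Gi, was at 28.8 and 33.8 against 27.5 and 27.5 TPM. Among receptors, Lpar1, for lysophosphatidic acid, was at 39.5 and 42.9 against 39.7 and 39.0 TPM. None of these had an adjusted p under 0.1.

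The pairing by batch changed the call for 2 receptors. With the replicate number as a block, Cxcr4, the receptor of the chemokine CXCL12, differed by 0.94 on the log2 scale (adjusted p = 0.0143 by limma, against 0.270 without the block). It was at 2.98 and 3.27 TPM in BMP6 libraries and at 1.32 and 1.01 TPM in control libraries. Adora2b, an adenosine receptor, passed with -0.43 (adjusted p = 0.0478) at 23.4 and 18.6 TPM against 31.1 and 26.2 TPM, lower with BMP6 within each replicate. Both were picked out by this alternative, after their values were seen. With the block, 1.23% of all entries passed as higher and 0.404% as lower.

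**Figure D5:**
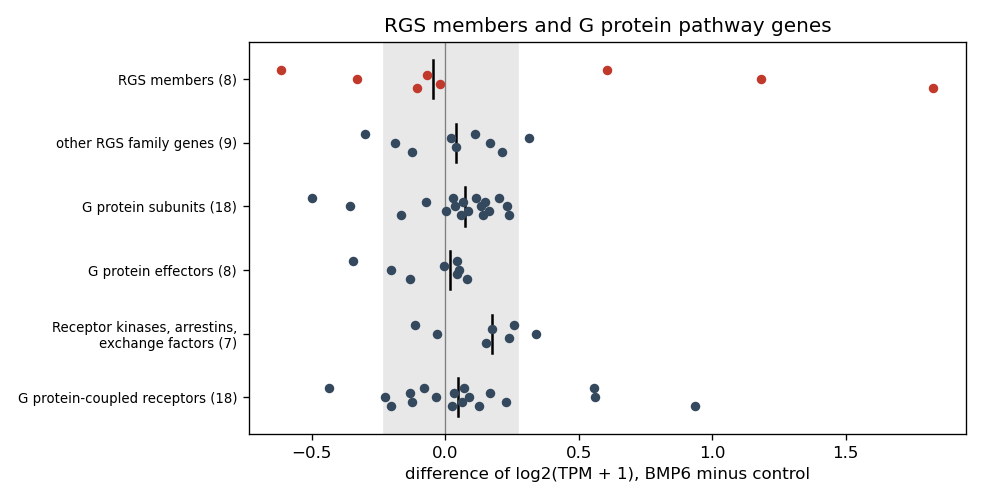
Difference of log2(TPM + 1), BMP6 minus control, for the 8 tested RGS members (red) and the 60 tested genes of 5 G protein pathway lists (number tested in brackets, vertical black line for the median of a list, grey band for the 5th to 95th percentile of all tested entries). Rgs3 and Gm5763 lie to the right of every listed gene, the highest of which is Cxcr4 at 0.94.

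Entries whose pattern over the 4 libraries was most like that of Rgs3 were found by the Euclidean distance between centred log2(TPM + 1) values among 10638 named entries. They were Dlx3 at a distance of 0.187, Ccn2 at 0.216, Klf10 at 0.332, Hbegf at 0.383 and Pwwp2b at 0.401. Ccn2, a secreted matrix protein, was at 31.9 and 32.5 TPM in BMP6 libraries and 9.48 and 9.56 TPM in control libraries, a level close to that of Rgs3 in both groups. The likeness rests on 4 libraries and is a description.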

How the data were processed

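Poly(A) RNA of 4 samples, 2 per group, was made into unstranded Smart-seq2 libraries without molecular identifiers. Per the labels and the study's methods, the authors aligned reads with STAR 2.7.11a to GRCm39, merged the assemblies over GENCODE M32 and quantified each library with StringTie 2.2.1 against the merged annotation, with the correction for reads aligned to several places switched off. The authors deposited TPM per entry in a joined table and, per transcript and exon, coverage, a signal of mean depth that they left unscaled. Groups and batches came from the labels.

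TPM was tested as log2(TPM + 1) with limma 3.58.1 (R 4.3.3, lmFit and eBayes with a trend, two-sided), and p-values were adjusted by Benjamini and Hochberg's procedure for the 13128 entries whose mean reached 1 TPM. This scale understates the change of low entries. An entry was called past a fold of 2 or 0.5 if its adjusted p was also below 0.1, the thresholds of the study. Here read numbers were rebuilt as coverage times length divided by 100 bases (108157527 to 111985694 per library). These are not independent molecules, and counting error is only a part of the error. The authors tested such rebuilt reads with DESeq2. Here they entered voom, scaled by the trimmed mean of M values, as an alternative. The code of the fit was tried on simulated data with independent noise of equal spread and no batch effect. Such data are unlike these libraries, so nothing about the error of the results is read from that trial. Same-numbered libraries are paired by the labelled batch, and their deviations from group means had a correlation of 0.563 across entries, which are not independent replicates. With 2 libraries per group an exact permutation test cannot give a p below 0.333. The limma p-values rest on the spread between these libraries, moderated for each entry by the spread of the other entries.

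Scaled coverage is coverage times the TPM per unit of coverage of a library. Sequences were read from GRCm39, coding lengths and coding genes were taken from GENCODE M39, and copies were searched with BLAST 2.17.0. Members and lists were chosen with earlier results of these data known. Named were all members, list genes with an adjusted p under 0.1 and the 2 tested genes of each list with the highest TPM, Rgs3 transcripts averaging 0.1 TPM or more, and the 5 named entries nearest to Rgs3. A list gene that this rule names is not reported here. Alternatives covered the pseudocount, the filter, the trend, the scaling, voom, the replicate block and leaving out each library. FPKM values were not used.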

Additional observations from a re-analysis of the deposited data

How the results depend on the processing

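The log2 fold change of Rgs3 kept its direction in all 14 alternatives. It was 1.92 with a pseudocount of 0.1, 1.52 with 5 and 1.71 from the first exon of the short transcript alone, the last chosen after seeing the data, and 1.74 to 1.92 when a library was left out. The replicate block left it at 1.83 with an SE of 0.09. Rgs4, Rgs5 and Gm5763 were above 0 and Rgs2, Rgs14, Rgs16 and Rgs19 below 0 in every alternative run for them. Rgs10 was above 0 without control replicate 1 (0.23), and Rgs12 was above 0 without BMP6 replicate 1 (0.09) or control replicate 2 (0.12).

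The 27 entries called over the whole table became 16 with a pseudocount of 5, 1 without a filter, 16 with a mean of at least 5 TPM, 14 without a trend, 15 with voom and, with the replicate block, 43, of which 41 were higher. Leaving out 1 library gave 23 to 39 calls. Without a filter 28856 entries were tested. The batch contrast had 69 calls, and 144 with a pseudocount of 0.1, 34 with 5, 40 without a filter and 160 with voom. List genes passing numbered 2 with the replicate block, Cxcr4 and Adora2b, and 0 to 1 when a library was left out, where Gnai2 passed without BMP6 replicate 2. The share difference of the short transcript ranged from -1.12 to 34.5 points when a library was left out. Rgs5 and Rgs14 were below 1 TPM, so that their fold changes depend on the pseudocount, at 0.09 to 0.85 and -0.79 to -0.07.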

Other observations

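The coverage of Rgs2 was uneven along its transcript. Its last exon of 2537 bases had scaled coverages of 0.943 and 0.852 in BMP6 libraries and of 2.67 and 1.28 in control libraries. The exons of 102, 62 and 167 bases before it had 3.10 to 4.72 in BMP6 libraries and 3.69 to 10.3 in control libraries. BMP6 libraries were below both controls in the last exon and in the 167-base exon, and in the 102-base and 62-base exons control replicate 2 fell between the BMP6 libraries. Rgs5 had the same shape, with 0.216 to 0.431 in its last exon of 3635 bases and up to 2.27 in the 62-base exon, and Rgs4 did not, with 8.67 to 16.6 in its last exon of 2444 bases and 8.54 to 16.0 in its 62-base exon. The cause was not tested.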
